A study of Bos taurus with 8 samples.

Results

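Transcripts of genes for cholesterol and fatty acid synthesis were compared between muscle cells of beef and dairy bulls. The genes were chosen by name, 8 in all, and a gene was taken as measured where the array file or the RefSeq accession of a probe gave its symbol. On the cholesterol side these were *HMGCS1*, *SQLE*, *FDFT1*, *FDPS*, and *INSIG1*, and on the fatty acid side *SCD*, *FASN*, and *SREBF1*. Of the 8 genes, 6 had a probe, read by 7 of the 21475 probes of the array (7788 genes in all had a named probe), and *HMGCS1* and *FASN* were not analysed here. All 7 probes were well above background in 16 of 16 channels and were among the 17622 probes tested.

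The cells were primary muscle cell cultures from m. semitendinosus of Limousin (LIM), Hereford (HER), and Holstein Friesian (HF) bulls, 15 months old, with 4 bulls of each breed. LIM and HER are beef breeds, and HF is the dairy breed that served as the control. All cultures were untreated, grew in a medium with 10% fetal bovine serum, and were frozen while proliferating, at 80% confluence. Preplating enriched the cultures for myoblasts without making them pure, and in RNA of mixed cells fewer cells of a type and less RNA per cell cannot be told apart.

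Each of the 8 arrays had 2 colours and carried RNA of a beef culture beside RNA of an HF culture. LIM was in the Cy5 channel of 4 arrays, with HF in Cy3, and HER was in the Cy3 channel of the other 4, with HF in Cy5. Because all 4 arrays of a comparison shared a slide and a dye order, these cannot be told apart from breed. Both comparisons have HF as the control, and which HF culture was on which array was not given in the sources used here.

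Cholesterol is built from acetyl-CoA through mevalonate, isoprenoid units, squalene, and lanosterol, and fatty acids are built from the same acetyl-CoA and then desaturated and elongated. Both routes are switched on by SREBP transcription factors, which are held in the endoplasmic reticulum by INSIG proteins while sterols are plentiful and are cut free when sterols fall. Dividing muscle cells need both products for new membranes, and cells in serum can also take up cholesterol from it.

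Values are log2 ratios of the beef breed over HF, as mean ± SD over 4 arrays, so that 1 means a doubled signal and a negative value means more signal in HF. A gene was called higher or lower where the adjusted p of limma (Benjamini-Hochberg over all probes tested) was at most 0.05 and the fold change at least 1.3. All statements on a test below refer to this limma fit, and each adjusted p to it. No coordinates are given because the array was designed on the assembly HGSC Btau_3.1, while the gene table at hand rests on another one.

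In the beef channels 68.8% to 85.2% of the probes were well above background, and in the HF channels 73.8% to 78.0%. No spot was saturated. The mean correlation of an array with the other 3 of its comparison was lowest for LIM 4 (0.482, others 0.561 to 0.684) and HER 3 (0.466, others 0.520 to 0.623). Muscle identity was present on every array, since *MYF5*, *MYOD1*, and *DES* were well above background in 16 of 16 channels. All 7 tested markers of differentiating muscle cells were higher in LIM and in HER (medians of 3.57 and 3.13), as were 4 of 6 markers of muscle progenitors in each comparison. Of 8 fibroblast markers, 5 were higher and 2 lower in each comparison. Among the higher ones *DCN* counted only in LIM (1.89), where its other probe read −0.40 and was not called, and *THY1* only in HER. Of 3 markers of smooth muscle cells and pericytes, 1 was higher in LIM and 2 in HER. None of 3 endothelial and none of 2 division markers was called, and 1 of 2 leukocyte markers, *CD68*, was higher in both. The endothelial ratios spread widely between arrays, so the missing calls do not show equal content. *ESAM* ran from −1.27 to 4.47 in LIM and from −3.90 to 3.81 in HER. *TEK* ran from 0.63 to 3.83 and from −3.29 to 3.86, and *KDR* from −0.33 to 3.09 and from −2.40 to 3.32. Beside these counts, 34.4% of all probes tested were called in LIM and 24.4% in HER.

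In LIM cells 2 of the 6 measured genes were called, both lower than in HF cells, namely *FDPS* and *SREBF1*. Over all probes tested, 34.4% were called in LIM, made up of 18.3% lower and 16.1% higher than in HF. In HER cells 1 of the 6 genes was called, *SCD*, which was higher than in HF cells, against 24.4% of all probes called in HER and 10.4% called higher (14% lower). The median log2 ratio of the 6 genes was −0.22 in LIM and 0.38 in HER, and that of all probes −0.01 and −0.06. *SQLE*, *FDFT1*, and *INSIG1* were called in neither comparison. With limma p-values of at most 0.05 left unadjusted and the same fold change, the kind of threshold in the study's methods, 2 genes passed in LIM (41.6% of all probes) and 2 in HER (34.8%), where *SQLE* joined *SCD*.

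**Figure D1:**
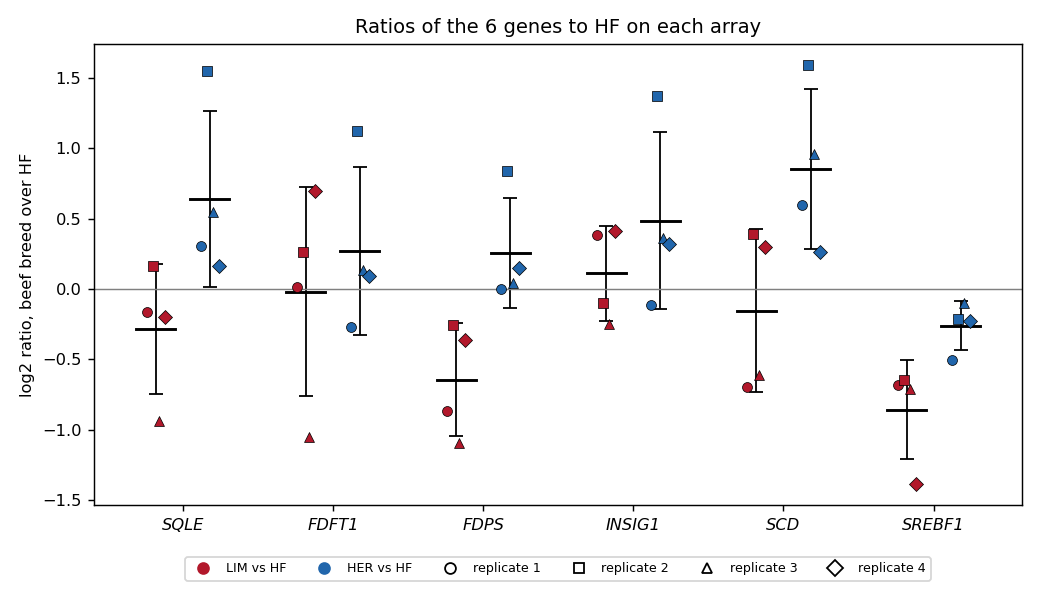
Log2 ratio of the beef breed over HF (y axis) for the 6 measured genes (x axis), with LIM arrays in red and HER arrays in blue, the marker shape giving the replicate, and bars the mean ± SD over 4 arrays. HER 2 (blue square) was highest among HER arrays for 5 of the 6 genes, and LIM 3 (red triangle) was lowest among LIM arrays for 4 of the 6.

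*FDPS* encodes farnesyl diphosphate synthase, which makes the isoprenoid unit that feeds both cholesterol synthesis and protein prenylation. It was lower in LIM than in HF cells on 4 of 4 arrays. The log2 ratios of probe A_73_110752 were −0.87, −0.26, −1.09, and −0.36 on LIM 1 to LIM 4. The processed signal of the LIM channel was 14980, 21090, 13490, and 19420, and that of the HF channel 27370, 25230, 28770, and 24900 on the same arrays. Every LIM signal was below every HF signal, and LIM 1 and LIM 3 were the low ones. The mean was −0.64 ± 0.40 (SD, n = 4), a fold change of 1.56 downward (limma adjusted p = 0.0286, 95% interval from −1.07 to −0.21). The call was lost without LIM 1 (−0.57, adjusted p = 0.0984 by limma) and without LIM 3 (−0.50, adjusted p = 0.125 by limma).

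In HER cells the *FDPS* ratios were −0.00, 0.84, 0.04, and 0.15 on HER 1 to HER 4. HER 2 stood above the other 3, with a signal of 31800 in the HER channel against 16340 to 18150 on the other HER arrays. The HF signals were 14850 to 17780, so the channels overlapped. The mean of 0.26 ± 0.39 was not called (limma adjusted p = 0.338, 95% interval from −0.17 to 0.69), and it was 0.06 without HER 2. The HF channel itself read 24900 to 28770 on the LIM arrays, where it was Cy3, and 14850 to 17780 on the HER arrays, where it was Cy5, so signals were set side by side only within a comparison.

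*FDFT1* encodes squalene synthase, the step that commits farnesyl units to sterols. It was not called in either comparison, and its arrays spread widely. The log2 ratios of probe A_73_118248 were 0.01, 0.26, −1.05, and 0.69 in LIM, from a low on LIM 3 to a high on LIM 4. In HER they were −0.27, 1.12, 0.13, and 0.10, with HER 2 far above the other 3. The mean was −0.02 ± 0.74 in LIM (limma adjusted p = 0.966, 95% interval from −0.70 to 0.66) and 0.27 ± 0.60 in HER (limma adjusted p = 0.523, from −0.41 to 0.95). The LIM mean was positive without LIM 3 and under 4 settings with loess on the median intensities, with or without background correction. The HER mean was −0.012 without HER 2. Signals of the channels overlapped in both comparisons, with 2165 to 5855 in LIM against 3073 to 4478 in HF, and 2143 to 4541 in HER against 2086 to 2579 in HF.

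*SQLE* encodes squalene epoxidase, which adds oxygen to squalene and is among the slowest steps of the route. In HER cells the log2 ratios of probe A_73_111677 were 0.31, 1.55, 0.55, and 0.17, all above 0. The HER channel read 11370, 25190, 14170, and 10860, and the HF channel 9202, 8597, 9709, and 9675. No HER signal overlapped the HF range, and HER 2 was by far the highest of them. The mean was 0.64 ± 0.63 with a fold change of 1.56, which did not pass after adjustment (limma adjusted p = 0.0891, 95% interval from 0.08 to 1.21). Without HER 2 the mean was 0.34.

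In LIM cells the *SQLE* ratios were −0.16, 0.16, −0.94, and −0.20, with LIM 3 lowest. The LIM signals of 9171 to 14280 overlapped the HF signals of 11620 to 17540. The mean of −0.28 ± 0.46 was not called (limma adjusted p = 0.397, 95% interval from −0.85 to 0.28), and it was −0.067 without LIM 3.

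*INSIG1* encodes a membrane protein that retains the SREBP complex in the endoplasmic reticulum and is itself a classic SREBP target. It was called in neither comparison. The log2 ratios of probe A_73_117398 were 0.38, −0.10, −0.25, and 0.41 in LIM, on both sides of 0. In HER they were −0.11, 1.37, 0.36, and 0.32, again with HER 2 on top, where the HER channel read 3495 against 1029 to 1282 on the other HER arrays. The means were 0.11 ± 0.34 in LIM (limma adjusted p = 0.731, 95% interval from −0.41 to 0.64) and 0.48 ± 0.63 in HER (limma adjusted p = 0.149, from −0.04 to 1.01). The HER mean was 0.19 without HER 2, and the LIM mean was −0.038 with array weights.

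*SREBF1* encodes SREBP-1, the transcription factor that drives fatty acid synthesis genes above all. It was lower in LIM than in HF cells on 4 of 4 arrays. The log2 ratios of probe A_73_105306 were −0.68, −0.65, −0.71, and −1.39 on LIM 1 to LIM 4, with the first 3 close together and LIM 4 well below them. The LIM channel read 547, 444, 453, and 240, and the HF channel 877, 695, 742, and 627. No LIM signal reached the HF range. The mean was −0.86 ± 0.35, a fold change of 1.81 downward (limma adjusted p = 0.00312, 95% interval from −1.19 to −0.52). Without LIM 4 it was −0.68 and still called. In HER cells the ratios were −0.50, −0.21, −0.10, and −0.23, all below 0, while the signals of 363 to 521 in HER and 424 to 635 in HF overlapped. That mean of −0.26 ± 0.17 was not called (limma adjusted p = 0.213, 95% interval from −0.59 to 0.07).

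*SCD* encodes stearoyl-CoA desaturase, which turns saturated into monounsaturated fatty acids and sets much of the oleic acid content of beef fat. It was higher in HER than in HF cells on 4 of 4 arrays. The brighter of its probes, A_73_106141, gave log2 ratios of 0.60, 1.59, 0.96, and 0.27. The HER channel read 6116, 11440, 7811, and 6617, and the HF channel 4037, 3793, 4015, and 5505. All HER signals were above all HF signals, with HER 2 highest and HER 4 nearest to its HF channel. The mean was 0.85 ± 0.57, a fold change of 1.81 (limma adjusted p = 0.0423, 95% interval from 0.27 to 1.44). The call was lost without HER 1 (0.94), HER 2 (0.61), HER 3 (0.82), or LIM 3, with limma adjusted p of 0.0957, 0.166, 0.114, and 0.0535, the value itself being unchanged without LIM 3. In LIM cells the brighter probe gave −0.70, 0.39, −0.61, and 0.30, split around 0 with LIM 1 and LIM 3 low, and the mean of −0.15 ± 0.58 was not called (limma adjusted p = 0.667, 95% interval from −0.74 to 0.43). It was 0.028 without LIM 1.

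The dimmer probe of *SCD*, A_73_116477, gave 0.47, 1.54, 1.13, and 0.26 in HER, within 0.18 of the brighter probe on each array. Its HER mean was 0.85 ± 0.59 (limma adjusted p = 0.0624). In LIM it gave −0.99, 0.15, −1.02, and −1.54, with a mean of −0.85 ± 0.71 (limma adjusted p just above 0.05, so not called). On LIM 4 the probes pointed in opposite directions. Each probe was spotted 6 times, and on that array the spots of the brighter probe lay between 0.27 and 0.37 and those of the dimmer one between −1.59 and −1.43. The gap between probes was 1.84 on LIM 4 and at most 0.42 on the other arrays. Of 355 genes with 2 tested probes, 44 (12.4%) differed at least as much on LIM 4, where the median gap was 0.677 against 0.264 to 0.498 elsewhere. The direction of *SCD* on LIM 4 therefore depended on the probe, and what sequence each probe covers was not given in the sources used here.

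**Figure D2:**
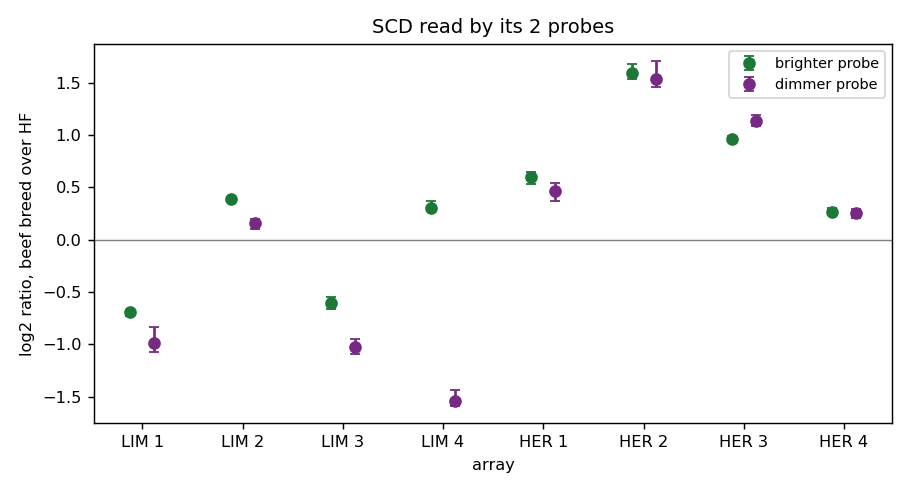
Log2 ratio of the beef breed over HF (y axis) from the brighter probe (green) and the dimmer probe (purple) of *SCD* on each array (x axis), as the mean of 6 spots with bars from the lowest to the highest spot. The probes nearly coincide on the 4 HER arrays and stand 1.84 apart on LIM 4.

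**Figure D3:**
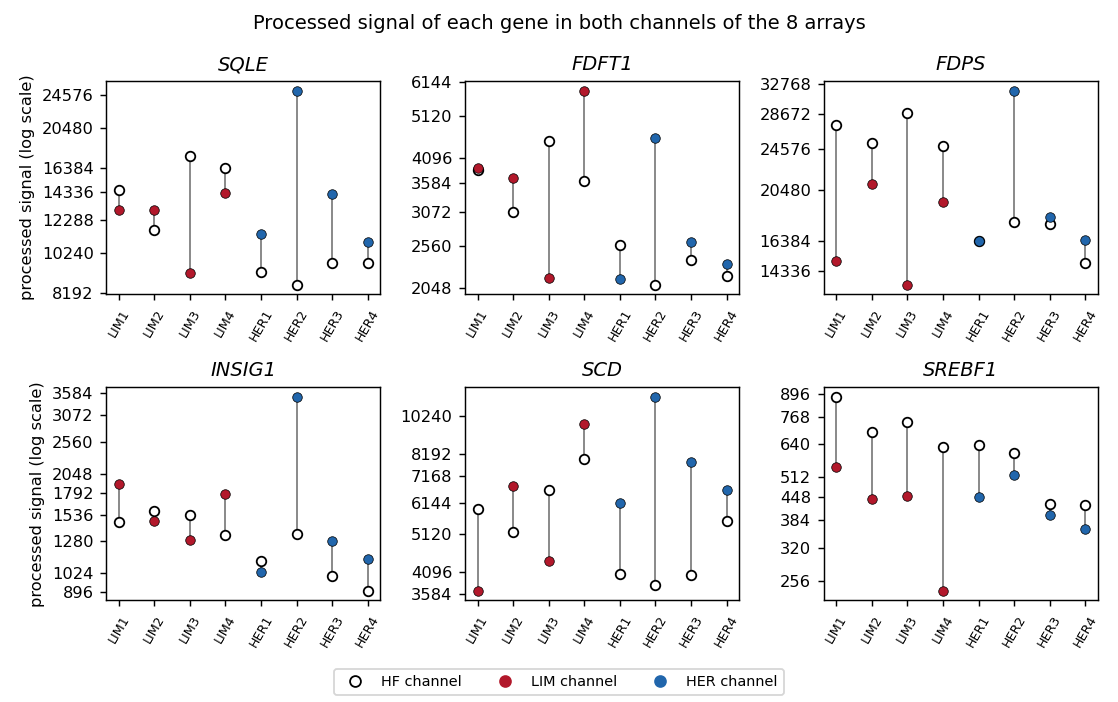
Processed signal on a log axis (y axis) of the HF channel (open) and the beef channel (red for LIM, blue for HER) on each array (x axis), with a line joining the channels of an array, and *SCD* shown by its brighter probe. LIM and HF signals are separate for *FDPS* and *SREBF1*, HER and HF signals for *SQLE* and *SCD*.

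*SCD* and *SREBF1* are also strongly expressed in fat cells, and adipocyte markers were called in both directions. Of 7 tested markers, 1 was higher and 2 lower in LIM (42.9% called), and 1 was higher and 1 lower in HER (28.6%). Over all probes tested the shares called were 34.4% and 24.4%. *PLIN1*, which coats lipid droplets, was higher in both (1.06 and 1.03). *CEBPA*, an adipogenic transcription factor, was lower in both (−1.94 and −0.81), and *LEP*, the hormone leptin, was lower in LIM (−0.43). *LEP* was well above background in 4 of 4 LIM channels, in 2 of 4 HF channels beside them, and in 0 channels of the HER arrays. Its call in LIM therefore rests partly on dim HF signals. *PLIN1* was well above background in 4 of 4 beef channels but only 2 of 4 HF channels of each comparison. The summed signal of the list was 18210 to 63860 in LIM against 118800 to 150200 in HF, and 38500 to 51610 in HER against 55170 to 112000 in HF. *CEBPA* alone made up 84.5% to 98.8% of this sum on every channel. The other 6 markers summed to 2124 to 9894 in LIM against 1695 to 4093 in HF, and to 718 to 1487 in HER against 1133 to 2450 in HF, and no marker of the list with a probe was below background in every channel. The summed signal of the differentiating muscle list was 47930 to 101600 in LIM against 2816 to 8589 in HF, and 13610 to 94270 in HER against 1623 to 9308 in HF. The part of these cell states in the values above was not tested.

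The ratio to HF was then compared between the beef breeds, as LIM minus HER in the same fit. All 6 differences were negative, and 0 of 6 genes was called, where limma called 0.233% of all probes. With limma p-values of at most 0.05 left unadjusted 4 of 6 passed, all lower in LIM, against 14.1% of all probes in either direction and 6.17% as lower. These were *SCD* (−1.01, 95% interval from −1.84 to −0.18, limma adjusted p = 0.248), *SQLE* (−0.93, from −1.73 to −0.12, limma adjusted p = 0.269), *FDPS* (−0.90, from −1.51 to −0.29, limma adjusted p = 0.185), and *SREBF1* (−0.60, from −1.07 to −0.13, limma adjusted p = 0.233). Without HER 2 or without LIM 3 only 2 of the 6 passed unadjusted. By its dimmer probe *SCD* differed by −1.70 (limma adjusted p = 0.137). *INSIG1* differed by −0.37 (from −1.12 to 0.37) and *FDFT1* by −0.29 (from −1.25 to 0.67). Slide and dye order changed together with breed in these differences, and the 3 cannot be told apart.

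**Figure D4:**
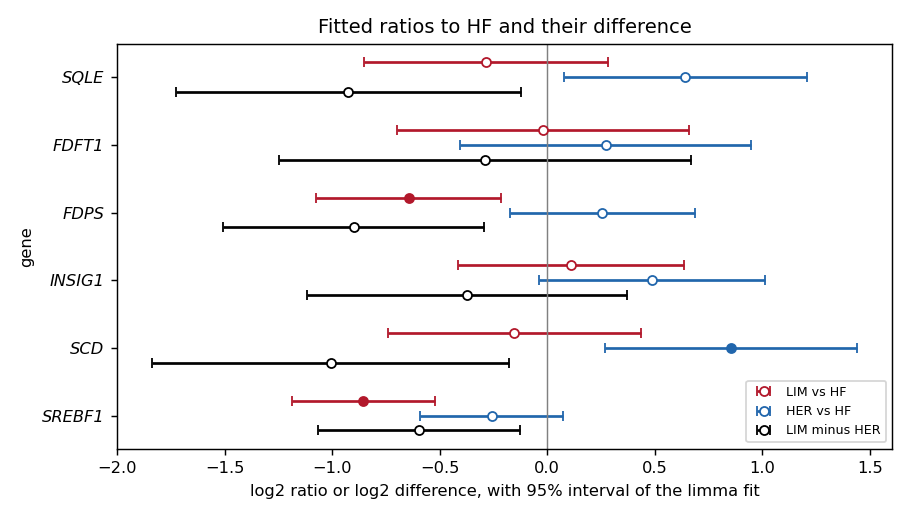
Fitted log2 ratio to HF in LIM (red) and HER (blue) and their difference, LIM minus HER (black), on the x axis for each measured gene (y axis), with the 95% interval of the limma fit. Filled points mark the 3 called values, *FDPS* and *SREBF1* in LIM and *SCD* in HER, and no difference is filled.

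A dye effect of a probe cancels in the average of both comparisons, because the dyes were reversed between them. In this average 1 of the 6 genes was called, *SREBF1*, lower in beef cells by −0.56 (95% interval from −0.79 to −0.32, limma adjusted p = 0.00282), against 38.1% of all probes in either direction and 20.4% as lower. Its ratio was below 0 on all 8 arrays, and the call of the average was lost with normexp background correction on local backgrounds as measured. The fit took the 8 ratios as independent. They may not be, since HF cultures may be shared between the comparisons, and the interval may then be too narrow. The other 5 averages lay between −0.19 for *FDPS* and 0.35 for *SCD*, with intervals that included 0. By its dimmer probe the average of *SCD* was 0.00 (95% interval from −0.47 to 0.47).

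The cholesterol genes had their extremes on the same arrays, a pattern that was noticed after the values were seen. The mean of *SQLE*, *FDFT1*, *FDPS*, and *INSIG1* was −0.16, 0.02, −0.83, and 0.14 on LIM 1 to LIM 4 and −0.02, 1.22, 0.27, and 0.18 on HER 1 to HER 4. LIM 3 was low and HER 2 high for this mean, and the other 6 arrays stayed within 0.27 of 0. Among 16 tested genes of cholesterol synthesis, *SQLE*, *FDFT1*, and *FDPS* included, 12 (75.0%) had their highest HER ratio on HER 2, against 23.5% of all probes, and 9 (56.2%) their lowest LIM ratio on LIM 3, against 15.9%. Since the pattern was seen on *SQLE*, *FDFT1*, and *FDPS*, these count by construction, and among the other 13 genes 9 (69.2%) were highest on HER 2 and 6 (46.2%) lowest on LIM 3. The median ratio of the 16 genes was 0.89 on HER 2 and −0.40 on LIM 3. Of 18 tested fatty acid synthesis genes, *SCD* and *SREBF1* included, 7 were highest on HER 2 and 3 lowest on LIM 3. *MVK*, which encodes mevalonate kinase, went the other way on HER 2, with −0.76 there and 1.57, 1.72, and 1.24 on HER 1, HER 3, and HER 4.

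**Figure D5:**
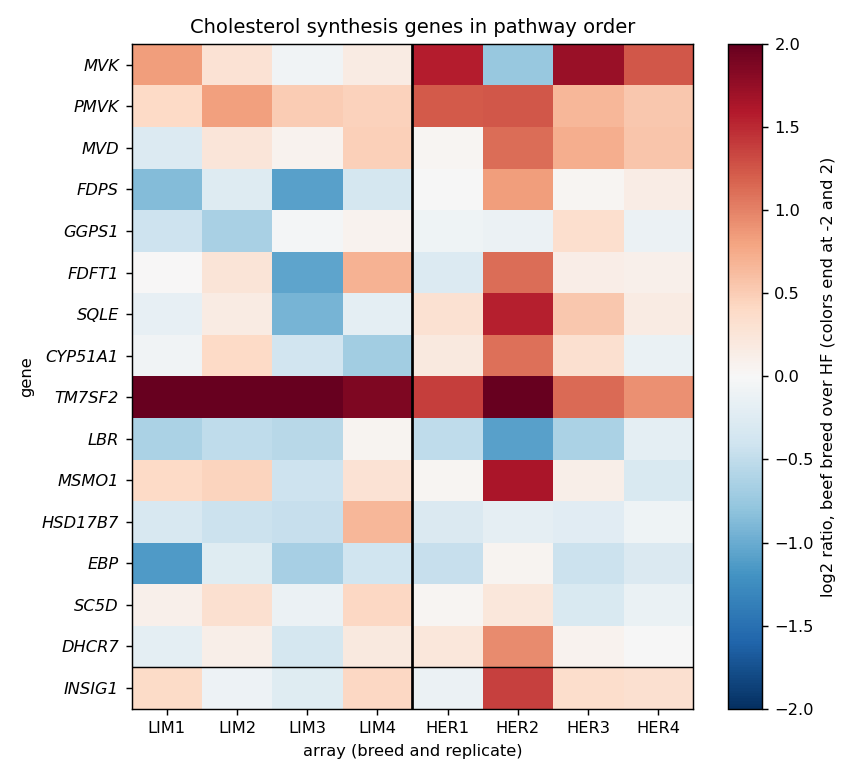
Log2 ratio of the beef breed over HF (colour, red above 0 and blue below, ending at −2 and 2) on each array (x axis) for 15 genes of cholesterol synthesis in pathway order (y axis) and, under the line, *INSIG1*. The HER 2 column is red for most genes, with *MVK* and *LBR* as the deepest blue exceptions, and *TM7SF2* is red on all arrays.

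The genes whose ratios over the 8 arrays lay nearest to the mean of the 4 cholesterol genes were looked up among 6799 named genes, by root mean square difference. Among the 5 nearest, the first was *DHCR7* (0.24), the enzyme of the last step to cholesterol, followed by *PBX4* (0.29), a homeobox transcription factor, *CLUAP1* (0.33), a cilium protein, and *EEF2K* (0.34), a kinase that slows translation elongation. The 4 genes themselves lay 0.23 to 0.37 from their own mean.

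The other genes of the routes were read from 4 lists with 72 genes, 45 of them tested. In LIM 2 were higher and 9 lower (24.4% called), and in HER 5 were higher and 3 lower (17.8%), against 34.4% and 24.4% of all probes. Their median ratios were −0.14 and 0.00. Whether the listed genes were called more or less often than all probes depended on the setting, as in LIM 20 of 45 (44.4%) passed with unadjusted p-values against 41.6% of all probes, and 20 of 45 without LIM 4 against 39.8%.

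In the cholesterol synthesis list 13 of 18 genes were tested, and 2 were higher and 1 lower in LIM, 3 higher and 1 lower in HER. *TM7SF2*, a sterol reductase that works after lanosterol, had the largest ratio of the list in both comparisons (2.39 ± 0.74 in LIM, 1.57 ± 0.87 in HER, higher on 8 of 8 arrays, limma adjusted p of 0.00176 and 0.0163). *LBR*, a nuclear envelope protein with the same reductase activity, was lower in HER (−0.61 ± 0.37) and read −0.41 ± 0.31 in LIM, where it was not called. *PMVK*, which encodes phosphomevalonate kinase, was higher in both (0.54 ± 0.19 and 0.91 ± 0.37), and *MVD*, the decarboxylase that follows it, was higher in HER (0.61 ± 0.45). The HER call of *MVD* was lost in 9 of 23 alternatives. *EBP*, a sterol isomerase, was lower in LIM (−0.61 ± 0.39).

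In the list of sterol sensing and cholesterol handling 9 of 18 genes were tested, and 2 were lower in LIM, 1 higher and 1 lower in HER. *NR1H3*, the sterol receptor LXR alpha that activates *SREBF1* transcription, was lower in both (−0.71 ± 0.22 and −0.48 ± 0.28, below 0 on 8 of 8 arrays). Its call was lost in 7 of 23 alternatives in HER and in 1 in LIM. *NPC2*, which hands cholesterol out of lysosomes, was higher in HER (2.06 ± 0.60) and read 1.26 ± 1.33 in LIM, where LIM 4 stood at −0.68 and the other 3 at 1.48 to 2.29. *LIPA*, the lysosomal lipase, was lower in LIM by its brighter probe (−0.50 ± 0.28) and higher in both by its other probe (1.95 and 1.81), so its direction depended on the probe.

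In the fatty acid synthesis list 16 of 24 genes were tested, with 4 lower in LIM and 1 higher and 1 lower in HER. *FADS2*, a desaturase of polyunsaturated fatty acids, was lower in LIM on 4 of 4 arrays (−1.02, −1.36, −2.45, and −1.28, mean −1.53 ± 0.63, limma adjusted p = 0.00625) and on both sides of 0 in HER (0.17 ± 0.75). *ELOVL6*, which elongates palmitate, was lower in LIM (−1.25 ± 0.64, limma adjusted p = 0.00515) and read −0.58 ± 0.37 in HER, below 0 on 4 of 4 arrays and not called. *SCD5*, the second stearoyl-CoA desaturase, and *AACS*, which activates acetoacetate, were also lower in LIM (−0.61 ± 0.36 and −0.93 ± 0.78). *HSD17B12* and *HACD3*, enzymes of the elongation cycle, moved in opposite directions in HER (0.51 ± 0.30 and −0.72 ± 0.20). The other probe of *HACD3* was lower in LIM (−0.97) and not called in HER (−0.37, limma adjusted p = 0.109). No difference between LIM and HER was called for any gene named from these lists, *FADS2* included (limma adjusted p = 0.150).

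In the glycerolipid list, where fatty acids are joined to glycerol, 7 of 12 genes were tested, and 2 were lower in LIM and none was called in HER. *AGPAT2*, which makes phosphatidic acid, was lower in LIM (−0.81 ± 0.54), as was *PCYT2* of phosphatidylethanolamine synthesis (−0.62 ± 0.26, below 0 on 4 of 4 arrays).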

How the data were processed

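Expression was measured on 8 two-channel arrays of bovine genes, and breed, dye, and replicate number were taken from the labels. The authors deposited the output of Feature Extraction 10.7.3.1 for each array, with median intensity, processed signal (background-subtracted and dye-normalized by the software), and the log10 ratio of red over green. The deposited table of the whole series held the same log10 ratio. The intensity columns served only in alternatives.

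The log10 ratio was turned into log2 beef breed over HF, control spots and outlier spots were left out, and spots of a probe were averaged. Probes that were well above background in no fewer than 4 of 16 channels were tested with limma 3.58.1 in R 4.3.3 (lmFit, eBayes), all 8 arrays in one model with a mean per comparison. With 4 arrays per comparison, their number limits the precision. A gene with several probes was read by its brightest. Names came from the files and from RefSeq accessions (7793 of 20693 matched). The steps were tested on simulated data.

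The members, gene lists, and marker lists were chosen with earlier results of these data known. Named were all members, the called genes of the 4 pathway lists (up to 4 highest and 4 lowest in each), and the 5 genes nearest to the cholesterol members. *MVK* was named after its values were seen. Marker lists covered muscle (progenitors and differentiating cells), fat, connective tissue (fibroblasts), vessels (endothelial cells, smooth muscle cells with pericytes), leukocytes, and division. Alternatives covered loess on the median intensities with several background corrections or none, centring and scaling, the filter on dim probes, and array weights. They also covered the replicate block, leaving out each array, the methods' t-test, all probes of a gene, and the unadjusted threshold. Normexp with one background per array was added after seeing the data. Promoter and probe sequences were not analysed here, and some single genes that the rule for naming covers are not reported here.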

Additional observations from a re-analysis of the deposited data

Results flagged for a closer look

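*SREBF1* on LIM 4 stood at a log2 ratio of −1.39, while the other 3 LIM arrays lay between −0.71 and −0.65. The gap to the nearest array was 0.91 of the whole range, above the 95% critical value of Dixon's test for 4 values. Of 44 groups of 4 arrays examined in this way 1 was marked, and chance alone marks about 1 in 20. Without LIM 4 the mean of *SREBF1* in LIM was −0.68, and the gene was still called.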

How the results depend on the processing

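Leaving out each array in turn gave 1 to 2 called members in LIM, 0 to 1 in HER, 0 to 0 for LIM minus HER, and 1 to 1 for the average of both, and 6 to 20 called pathway genes in LIM (20 without LIM 4, 6 without LIM 3) and 2 to 11 in HER (2 without HER 1 or HER 2, 4 without HER 3, 5 without LIM 2 or LIM 3). The main counts were 2, 1, 0, 1, 11, and 8. The unadjusted threshold gave 20 pathway genes in LIM, 2 members in HER, and 4 for LIM minus HER. Normexp with local backgrounds as measured called 0 members and 0 pathway genes in HER by limma (2 and 5 unadjusted), as it called 0 of all 17622 probes there, and 0 members for the average (0 unadjusted). Spots with a red background above 500 numbered 38 on HER 3, 11 on HER 2, 15 on LIM 1, 5 on LIM 4, and 0 on the other arrays. The highest green background was 163034 on HER 3, 144747 on HER 2, and 1447 or less on the other arrays. Without the filter on dim probes 0 members were called in HER by limma (2 unadjusted), and array weights gave 20 pathway genes in LIM. The methods' t-test called 0 members in HER and 3 for LIM minus HER unadjusted, and after Benjamini-Hochberg 0 members and 0 pathway genes in LIM (2 and 9 unadjusted) and in HER (0 and 7), where it called 2 of all 17622 probes. Causes were not tested. *SREBF1* in LIM stayed between −0.93 and −0.51 over 23 alternatives and lost its call in 1, *FDPS* in LIM in 3, and *SCD* in HER in 8. Among the pathway genes called in HER, *MVD* lost its call in 9, *NR1H3* and *HSD17B12* in 7 each, and *LBR* in 6. *TM7SF2*, *NPC2*, and *HACD3* lost it in 4 each, and *PMVK* in 2.

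Signs turned for *FDFT1*, *INSIG1*, *SCD*, *FADS2*, and *LIPA*. *FDFT1* in LIM read 0.019, 0.026, 0.020, and 0.025 under 4 settings with loess on the median intensities, with or without background correction. Leaving out an array gave −0.26 to 0.32 for *FDFT1* in LIM, positive without LIM 3. In HER *FDFT1* read −0.012 without HER 2 and up to 0.45. *INSIG1* in LIM read −0.038 with array weights. *SCD* in LIM read 0.028 without LIM 1, down to −0.33 when leaving out an array and to −0.50 over all alternatives. *FADS2* in HER read −0.013 under normexp as measured, −0.086 without HER 2, and up to 0.42, below 0 also without HER 3. *LIPA* read 0.73 in LIM and 0.82 in HER as the mean of its probes.

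Same-numbered arrays deviated with correlations of −0.24, 0.13, 0.30, and 0.54, against −0.47 to 0.40 for arrays of different numbers. Of the LIM arrays, 2 of 4 correlated best with their own number. These values cannot decide whether the replicate numbers pair the arrays, which was not given in the sources used here. The replicate block gave 2 members in LIM, 1 in HER, 0 for LIM minus HER, 1 for the average, and 14 and 9 pathway genes in LIM and HER.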
